A study of Mus musculus with 7 samples.

Results

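ER-associated degradation (ERAD) is the route by which proteins that fail to fold in the endoplasmic reticulum (ER) are recognised, ubiquitinated, pulled back into the cytosol and given to the proteasome. The 31 genes of this machinery described here were taken by symbol from the gene table of an RNA sequencing study of mouse long-term haematopoietic stem cells, in which they are 31 of 19649 genes. They fall into 5 genes that recognise clients, 13 that encode ubiquitin ligases with their conjugating enzymes and adaptors, 11 that extract the client from the membrane, and 2 that act on it afterwards. All 31 had at least 10 normalized counts in at least 3 libraries and so were among the 16047 genes tested.

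The study compared 3 libraries from mice whose genotype is given as Calr fl/fl (Calr del52/del52) MxCre, called mutant here, with 4 libraries from Calr +/+ (Calr wildtype) MxCre mice, called wild-type. Calr encodes calreticulin, a calcium-binding chaperone of the ER lumen, and the del52 allele is a knock-in of a frameshift found in myeloproliferative neoplasms. Mice of both groups carried MxCre, a Cre recombinase driven by an interferon-responsive promoter, and both received pI:pC to switch it on, so that recombination was not limited to stem cells. Cells were sorted on day 14 after induction began as lineage-negative, Kit-positive, Sca-1-positive, CD150-positive and CD48-negative cells, and no drug was given. The title of the series names the proteasome and the ER stress response, and ERAD lies between them. The labels used here state neither age nor sex, nor whether each library came from its own animal. P-values thus measure the spread between these libraries alone, which may be technical.

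In ERAD, mannose trimming marks a glycoprotein that has stayed unfolded for too long, and lectins carry it to a membrane-bound ligase complex built around SEL1L and HRD1. The client leaves through a channel formed by HRD1 and derlins, is tagged with ubiquitin and is pulled out by the ATPase p97, which is encoded by Vcp. Many of these genes are induced by the ER stress factors XBP1 and ATF6, and mouse knockouts have shown that the SEL1L and HRD1 branch is needed to maintain haematopoietic stem cells.

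Between 21325340 and 27083569 reads were counted in the mutant libraries and between 22555594 and 28710304 in the wild-type libraries, and mitochondrial genes held 0.683% to 1.17% of them in the mutant and 0.363% to 0.711% in the wild-type libraries. All 8 genes listed for the sorted population had reads in every library. They include Cd48, which the sort selects against and which had 124 to 164 normalized counts in the mutant libraries and 128 to 241 in the wild-type libraries. Wild-type 3 and 4 stood apart from the other 5 libraries, and the sort marker Kit had 4736, 6677 and 2976 normalized counts in mutant 1 to 3, against 4150.5, 4068, 26511 and 25305 in wild-type 1 to 4. Mutant 1 and 2 and wild-type 3 and 4 carry title numbers of a shared series that the other titles lack, and the labels do not say whether it is a batch. Neutrophil and monocyte markers, 15 of 15 in the table, summed to 10979.8 to 50046 normalized counts in the mutant libraries and 45199 to 88994 in the wild-type libraries. Of the 15, 3 had positive log2 differences, mutant minus wild-type, and the median was -2.09. In 5 the mutant was lower without overlap, beside 4.34% of all tested genes. Of mast cell, basophil and eosinophil markers 5 were tested, with 0 positive, a median of -1.78 and 1 lower without overlap. Megakaryocyte markers, 9 of 10 in the table, summed to 12347 to 17901 normalized counts in the mutant libraries and 19904 to 26768 in the wild-type libraries, so these sums did not overlap, and 2 of the 9 were lower without overlap. The part of any of these lists in the values below was not tested. In sorted bulk samples, fewer cells of a type and less RNA per cell cannot be told apart. Calr itself had 14239, 15724 and 15317 normalized counts in mutant 1 to 3, against 18606, 16639, 15922 and 15965 in wild-type 1 to 4, a log2 difference of -0.15. The allele alters the coding sequence, so this level does not check the genotype. Values given against wild-type 1 and 2 come from a fit that left out wild-type 3 and 4, and values against wild-type 3 and 4 from one that left out wild-type 1 and 2.

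The promoters of 24 of the 31 genes could be matched in RefSeq (GRCm38.p6), as 30 promoters of 300 bases each, from 250 bases before the start to 50 after it. They were searched on both strands for the sites through which ER stress is known to act. These are the ER stress element ERSE (CCAAT, 9 bases of any kind, then CCACG), the related ERSE-II (ATTGG, 1 base of any kind, then CCACG) and the unfolded protein response element UPRE (TGACGTGG). ERSE was found in the promoters of Syvn1 and Derl3 and in 0.119% of all 32851 promoters, and ERSE-II in that of Herpud1 and in 0.0365% of all. These promoters are shown because they hold the full letters of a stress element, and in part because Herpud1 and Derl3 have an unadjusted p under 0.05 in the test below. No ERAD gene passed that test after adjustment, and Syvn1 did not reach the unadjusted level. The 250 bases before the start are given 5′ to 3′ on the gene's strand, with the element in capitals, for Syvn1 at chr19:6046326-6046575 (plus strand), Herpud1 at chr8:94386179-94386428 (plus strand) and Derl3 at chr10:75893148-75893397 (plus strand).
Syvn1: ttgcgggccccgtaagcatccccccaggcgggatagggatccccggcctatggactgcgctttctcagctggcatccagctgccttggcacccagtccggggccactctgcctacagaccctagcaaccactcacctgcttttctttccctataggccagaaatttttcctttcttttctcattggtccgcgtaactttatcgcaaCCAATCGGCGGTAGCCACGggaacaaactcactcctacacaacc
Herpud1: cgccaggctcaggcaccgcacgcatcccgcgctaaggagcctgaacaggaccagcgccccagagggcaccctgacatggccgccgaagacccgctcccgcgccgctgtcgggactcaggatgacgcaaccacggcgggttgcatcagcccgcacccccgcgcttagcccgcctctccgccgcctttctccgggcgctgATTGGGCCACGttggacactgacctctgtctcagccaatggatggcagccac
Derl3: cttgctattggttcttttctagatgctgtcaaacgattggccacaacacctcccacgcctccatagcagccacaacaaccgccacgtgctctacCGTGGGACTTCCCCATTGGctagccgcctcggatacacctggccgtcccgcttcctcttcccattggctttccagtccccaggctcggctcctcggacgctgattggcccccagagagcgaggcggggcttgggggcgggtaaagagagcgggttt
The element ended 25 bases before the start in Syvn1, 41 in Herpud1 and 137 in Derl3, where it lies on the opposite strand. UPRE was found in the promoters of Ube2j1 and Vcp and in 0.676% of all promoters. The 30 bases around it, with the element in capitals, lie at chr4:33031301-33031330 (plus strand) for Ube2j1, where the element reads on the opposite strand, and at chr4:43000603-43000632 (minus strand) for Vcp.
Ube2j1: cgaagcgcccgCCACGTCAggccgacttca
Vcp: ctgcggccaatTGACGTGGcgttactaggc
The shorter pieces CCAAT and CCACG, which the longer elements contain, were found in 18 and 16 of the 30 promoters of the 24 matched genes (60.0% and 53.3%), and in 37.4% and 32.8% of all promoters. A match of letters is a description and not a measured binding site.

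Over all 7 libraries no ERAD gene passed the test. Limma, a linear model on log2(normalized count + 1) fitted to all 16047 genes, called 0 of the 31 at a Benjamini-Hochberg adjusted p of 0.05, and it called 0 of all genes (0.0%), with 1365 (8.51%) at an unadjusted p under 0.05. At that unadjusted level were 5 of the 31, namely Herpud1, Derl2, Derl3, Selenos and Selenok, and all of these had higher means in the mutant. On the recovered reads edgeR called 0 genes (0.0%), with 4 of the 31 and 10.2% of all genes at an unadjusted p under 0.05. DESeq2 called 107 genes (0.667%), none of them an ERAD gene, with 8 of the 31 and 14.6% of all genes at an unadjusted p under 0.05. The median log2 difference over the 31 genes, mutant minus wild-type, was 0.01 with 16 positive, beside 0.00 over all tested genes with 8034 of 16047 positive.

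**Figure D1:**
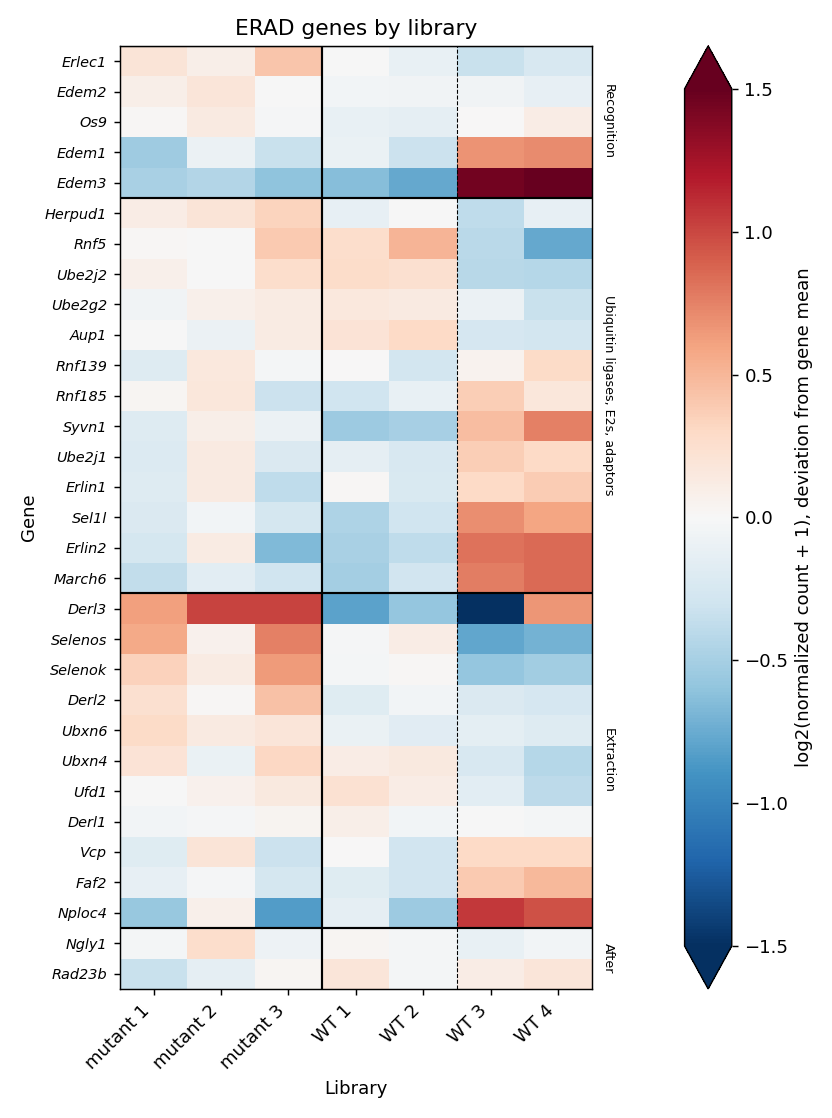
Level of the 31 ERAD genes in each library, as the log2 deviation from the gene's mean over the 7 libraries, with genes in rows by step, colours that saturate at 1.5 on either side of 0, the 3 mutant libraries on the left and the 4 wild-type libraries on the right. Wild-type 3 and 4 differ from wild-type 1 and 2 most for Edem3, at 929 and 971 normalized counts in wild-type 3 and 4, against 219 and 199 in wild-type 1 and 2.

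The groups did not overlap for 6 of the 31 genes, with all 3 mutant libraries above all 4 wild-type libraries, and no ERAD gene had all mutant libraries below. The same held for 5.23% of all tested genes above and 4.34% below. The 6 genes were Edem2 and Erlec1 of recognition, Herpud1 of the ligase complex, and Derl2, Selenok and Ubxn6 of extraction. Of these, Herpud1 is the gene whose promoter holds ERSE-II, and none of the other 4 with a matched promoter held ERSE, ERSE-II or UPRE.

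**Figure D2:**
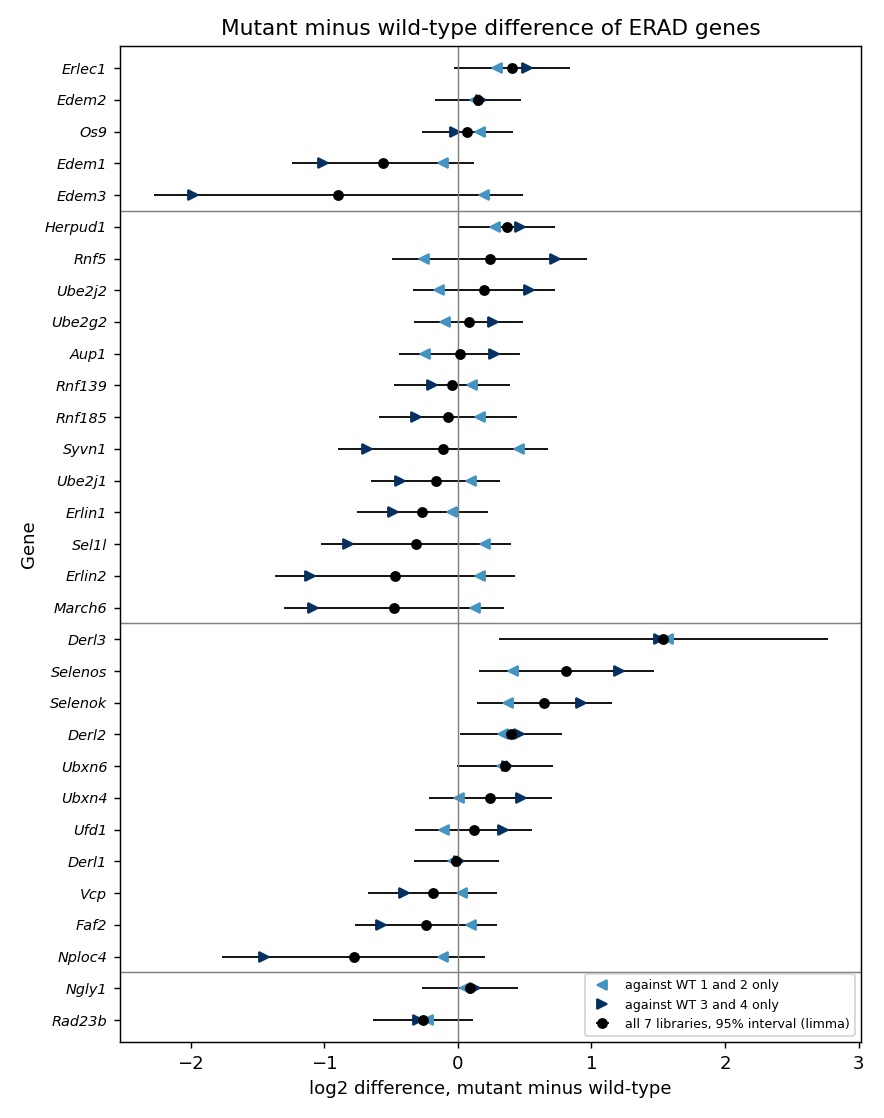
Log2 difference, mutant minus wild-type, of each ERAD gene by step, over all libraries with its 95% interval from limma, and with either wild-type pair left out. The intervals of Herpud1, Derl2, Derl3, Selenos and Selenok lie above 0, and the points for the 2 wild-type pairs lie on opposite sides of 0 for 17 of the 31 genes.

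The recognition genes had a median log2 difference of 0.07, with 3 of 5 positive and 0 called. Edem1, Edem2 and Edem3 encode proteins of the mannosidase family that trim glycans on ERAD clients. Edem2 (ENSMUSG00000038312.10, chromosome 2, 155701677 to 155729475, minus strand, GRCm38) had 4641, 4937 and 4321 normalized counts in mutant 1 to 3, against 4246, 4196, 4204 and 3991 in wild-type 1 to 4. Its mutant libraries were all higher, by a log2 difference of 0.15 (SE 0.14, 95% interval -0.17 to 0.48). Edem1 had 597, 816 and 690.0 normalized counts in mutant 1 to 3, against 807, 696, 1381 and 1417 in wild-type 1 to 4. Edem3 (ENSMUSG00000043019.12, chromosome 1, 151755371 to 151822051, plus strand) had 243, 252 and 224 normalized counts in mutant 1 to 3, against 219, 199, 929 and 971 in wild-type 1 to 4. For both, the mutant libraries were near wild-type 1 and 2 and well under wild-type 3 and 4, and Edem3 had the widest gap between the wild-type pairs of all 31 genes. The log2 difference of Edem3 was -0.89 (SE 0.60) over all libraries, 0.20 against wild-type 1 and 2 and -1.98 against wild-type 3 and 4.

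Os9 and Erlec1 encode the lectins that read trimmed glycans and hand the client to SEL1L. Erlec1 (ENSMUSG00000020311.17, chromosome 11, 30930774 to 30954335, minus strand) had 449, 416 and 526 normalized counts in mutant 1 to 3, against 390.0, 363, 312 and 331 in wild-type 1 to 4. All 3 mutant values were above all 4 wild-type values, with means of 463 ± 56.2 in the mutant libraries (SD, n = 3) and 349 ± 34.5 in the wild-type libraries (SD, n = 4) and a log2 difference of 0.41 (SE 0.19, 95% interval -0.026 to 0.84). The difference was 0.29 against wild-type 1 and 2 and 0.52 against wild-type 3 and 4. Os9 had 5516, 5999.8 and 5389 normalized counts in mutant 1 to 3, against 5085, 4967, 5509 and 5909 in wild-type 1 to 4, with overlapping groups and a log2 difference of 0.072 (SE 0.15).

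The ligases with their enzymes and adaptors had a median log2 difference of -0.08, with 5 of 13 positive and 0 called. The core pair is Sel1l, whose product holds the complex together, and Syvn1, which encodes the ligase HRD1. Sel1l had 2109, 2369.9 and 2031 normalized counts in mutant 1 to 3, against 1782, 1983, 3986 and 3682 in wild-type 1 to 4. Syvn1 (ENSMUSG00000024807.18, chromosome 19, 6046576 to 6053712, plus strand) had 978, 1189 and 1054 normalized counts in mutant 1 to 3, against 766, 793, 1547 and 1892 in wild-type 1 to 4. The 3 mutant libraries lay between the wild-type pairs for both genes, above wild-type 1 and 2 and below wild-type 3 and 4. Along with Edem3, they made up the 3 of the 31 genes with this order, which 4.07% of all tested genes shared. The log2 difference was -0.31 for Sel1l and -0.11 for Syvn1 over all libraries, 0.20 and 0.46 against wild-type 1 and 2, and -0.82 and -0.68 against wild-type 3 and 4.

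Herpud1 (ENSMUSG00000031770.16, chromosome 8, 94386438 to 94395377, plus strand) encodes a ubiquitin-like membrane protein that joins the HRD1 complex and is strongly induced by ER stress. It had 4951, 5228 and 5754 normalized counts in mutant 1 to 3, against 4203, 4561, 3530.2 and 4189 in wild-type 1 to 4. All 3 mutant libraries were above all 4 wild-type libraries, with means of 5311 ± 408 in the mutant libraries (SD, n = 3) and 4121 ± 429.6 in the wild-type libraries (SD, n = 4) and a log2 difference of 0.37 (SE 0.16, 95% interval 0.0069 to 0.73). It was the one ligase-step gene at an unadjusted p under 0.05, and its difference was 0.28 against wild-type 1 and 2 and 0.46 against wild-type 3 and 4.

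Of the other membrane ligases, March6 and Rnf5 differed most between the wild-type pairs. March6, the counterpart of yeast Doa10, had 552, 636 and 579 normalized counts in mutant 1 to 3, against 498, 581, 1208 and 1286 in wild-type 1 to 4. Rnf5 had 1355, 1338 and 1759 normalized counts in mutant 1 to 3, against 1608, 1902, 1011 and 784 in wild-type 1 to 4. In March6 the mutant libraries were below wild-type 3 and 4 by a log2 difference of -1.08, and in Rnf5 they were above that pair by 0.72. Against wild-type 1 and 2 the log2 differences were 0.13 and -0.25. Rnf139, which encodes the sterol-linked ligase TRC8, had 1138, 1447 and 1274 normalized counts in mutant 1 to 3, against 1311, 1072, 1345 and 1594 in wild-type 1 to 4. Rnf185, a relative of Rnf5, had 762, 838 and 596 normalized counts in mutant 1 to 3, against 606, 689, 966 and 842 in wild-type 1 to 4. In both the groups overlapped, with log2 differences of -0.042 (SE 0.19) and -0.075 (SE 0.23). The libraries were unstranded, and Rnf5 shares 24.7% of its exonic bases and Rnf139 22.3% with genes on the opposite strand, whose reads cannot be told apart there.

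Ube2j1, Ube2j2 and Ube2g2 encode the ubiquitin-conjugating enzymes of ERAD, and Aup1 encodes the adaptor that recruits UBE2G2. Ube2j2 had 2427, 2292 and 2757 normalized counts in mutant 1 to 3, against 2773, 2715, 1722 and 1702 in wild-type 1 to 4. Aup1 had 5457, 5172 and 5961 normalized counts in mutant 1 to 3, against 6317, 6761, 4597 and 4547 in wild-type 1 to 4. Ube2j1, whose promoter holds UPRE, had 1753, 2208 and 1733 normalized counts in mutant 1 to 3, against 1828, 1701, 2600.1 and 2479.7 in wild-type 1 to 4. Ube2j2 and Aup1 were lower in wild-type 3 and 4 than in any other library, whereas Ube2j1 was higher there. Over all libraries the log2 differences were 0.20 for Ube2j2, 0.014 for Aup1 and -0.17 for Ube2j1, with standard errors of 0.23, 0.20 and 0.21. Ube2g2 had 2131, 2333 and 2423 normalized counts in mutant 1 to 3, against 2477, 2428, 2079 and 1754 in wild-type 1 to 4, a log2 difference of 0.083 (SE 0.18). Of the exonic bases of Aup1, 23.0% are shared with Htra2 on the opposite strand.

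Erlin1 and Erlin2 encode a membrane scaffold that brings clients such as the IP3 receptor to ubiquitination. Erlin2 had 1305, 1706 and 994 normalized counts in mutant 1 to 3, against 1123, 1205, 2770.3 and 2838 in wild-type 1 to 4. Erlin1 had 1363, 1712 and 1197 normalized counts in mutant 1 to 3, against 1578, 1333, 1917 and 2029 in wild-type 1 to 4. Mutant 3 was the lowest library for both genes and wild-type 3 and 4 the highest. Erlin2 had log2 differences of -0.47 over all libraries, 0.16 against wild-type 1 and 2 and -1.10 against wild-type 3 and 4, and Erlin1 had -0.26, -0.042 and -0.49.

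The extraction genes had a median log2 difference of 0.24, with 7 of 11 positive and 0 called. As the median deviation from the gene means, this step stood at 0.21, 0.07 and 0.19 in mutant 1 to 3, against -0.03, -0.04, -0.15 and -0.20 in wild-type 1 to 4. The median difference was 0.10 against wild-type 1 and 2 and 0.37 against wild-type 3 and 4, and these were descriptions with no test. Within the step, Derl3, Selenos, Selenok and Derl2 had the highest differences and Nploc4 the lowest.

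The derlins are rhomboid-like membrane proteins that thin the membrane where clients leave. Derl1 had 3401, 3467 and 3618 normalized counts in mutant 1 to 3, against 3731, 3421, 3489 and 3451 in wild-type 1 to 4. Derl2 (ENSMUSG00000018442.13, chromosome 11, 71007164 to 71019841, minus strand) had 1806, 1547 and 2075 normalized counts in mutant 1 to 3, against 1357, 1488, 1322 and 1286 in wild-type 1 to 4. The Derl1 values of the groups were interleaved, with a log2 difference of -0.011 and a 95% interval of -0.33 to 0.31, while every Derl2 value was higher in the mutant. For Derl2 the means were 1809 ± 264 in the mutant libraries (SD, n = 3) and 1363 ± 87.8 in the wild-type libraries (SD, n = 4), and the log2 difference was 0.40 (SE 0.17), 0.34 against wild-type 1 and 2 and 0.46 against wild-type 3 and 4.

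Derl3 (ENSMUSG00000009092.5, chromosome 10, 75893413 to 75895941, plus strand), a derlin that is induced by ER stress and expressed in secretory cells, had 145, 190.2 and 191 normalized counts in mutant 1 to 3, against 53.5, 62.3, 24.2 and 149.7 in wild-type 1 to 4. Mutant 1 was just under wild-type 4, and the other mutant libraries were above all wild-type libraries. The log2 difference was 1.54 (SE 0.54, 95% interval 0.31 to 2.77), in limma over all libraries the largest of the 31 genes in either direction. The means were 175 ± 26.5 in the mutant libraries (SD, n = 3) and 72.4 ± 54.02 in the wild-type libraries (SD, n = 4). With edgeR and DESeq2 the difference was 1.26 and 1.28, beside -1.29 and -1.26 for Edem3. In limma it was 1.57 for Derl3 against wild-type 1 and 2 and 1.51 against wild-type 3 and 4, although wild-type 3 and 4 were the lowest and the highest of the wild-type libraries. Derl3 is also a gene of antibody-secreting cells, and of 15 plasma and B cell markers 9 were in the table. They summed to 1758 to 2120 normalized counts in the mutant libraries and 1512 to 2088 in the wild-type libraries, mostly from Cd79b. Jchain had 9.67 to 19.6 in the mutant and 5.46 to 18.3 in the wild-type libraries, and Tnfrsf17 had 0.893 to 12.3 in the mutant and 0 to 2.19 in the wild-type libraries. Of the 7 that were tested, 3 had positive differences and the median was -0.17. Lower in the mutant without overlap, as were 4.34% of all tested genes, were 2 of the 7. These were Ighm, with 15.2 to 68.4 in the mutant and 119 to 178 in the wild-type libraries, and Cd79a, with 2.24 to 8.93 in the mutant and 9.83 to 21.6 in the wild-type libraries. The part of such cells in the Derl3 values was not tested.

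**Figure D3:**
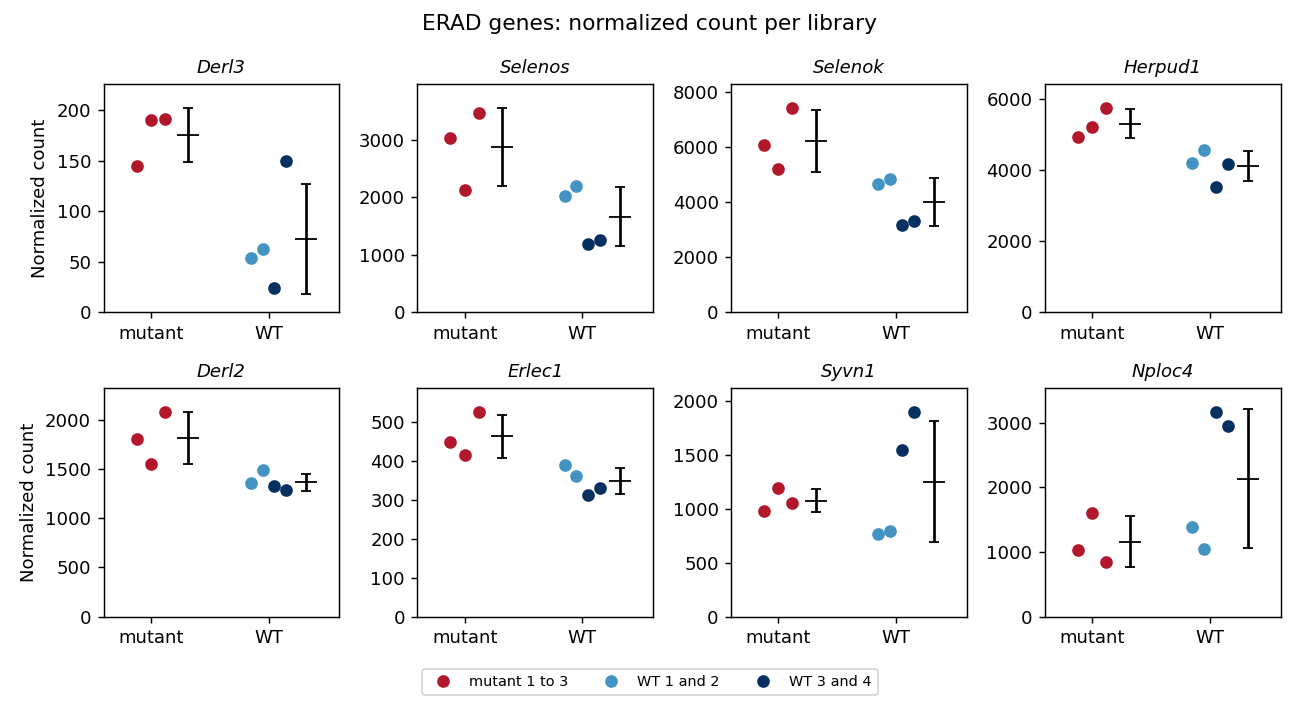
Normalized counts of Derl3, Selenos, Selenok, Herpud1, Derl2, Erlec1, Syvn1 and Nploc4 in each library, mutant left and wild-type right, with the mean of each group as a horizontal line and the SD as an error bar. Selenok, Derl2, Herpud1 and Erlec1 have no overlap between the groups, while in Derl3 mutant 1 lies under wild-type 4 and in Selenos mutant 2 lies under wild-type 2. In Syvn1 the mutant libraries lie between the wild-type pairs.

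Selenos and Selenok encode selenoproteins of the ER membrane that bind derlins and help bring p97 to them. Selenok (ENSMUSG00000042682.9, chromosome 14, 29968308 to 29975662, plus strand) had 6056, 5184 and 7403 normalized counts in mutant 1 to 3, against 4666, 4832, 3177 and 3302 in wild-type 1 to 4. Its mutant libraries were all higher, with means of 6215 ± 1118 in the mutant libraries (SD, n = 3) and 3994 ± 875 in the wild-type libraries (SD, n = 4) and a log2 difference of 0.65 (SE 0.22, 95% interval 0.14 to 1.16). Selenos (ENSMUSG00000075701.9, chromosome 7, 66079649 to 66089405, plus strand) had 3033, 2135 and 3461 normalized counts in mutant 1 to 3, against 2026, 2201, 1189 and 1254 in wild-type 1 to 4. Mutant 2 was within the range of wild-type 1 and 2, and the other mutant libraries were above all wild-type libraries, for a log2 difference of 0.81 (SE 0.29, 95% interval 0.16 to 1.47). Against wild-type 1 and 2 the differences were 0.37 for Selenok and 0.42 for Selenos, and against wild-type 3 and 4 they were 0.92 and 1.21. The annotation lists 6 copies of Selenok by symbol, none of which is in the table, so shared reads could be lost or assigned to Selenok.

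Vcp encodes p97, and Ufd1 and Nploc4 encode the partners with which it grips ubiquitinated clients. Nploc4 (ENSMUSG00000039703.15, chromosome 11, 120380370 to 120437708, minus strand) had 1024, 1603 and 847 normalized counts in mutant 1 to 3, against 1388, 1041, 3159.8 and 2945 in wild-type 1 to 4. Ufd1 had 2087, 2197 and 2314 normalized counts in mutant 1 to 3, against 2464, 2256, 1884 and 1596 in wild-type 1 to 4. Although their products work as a pair, Nploc4 was higher and Ufd1 lower in wild-type 3 and 4 than in every other library. Nploc4 had log2 differences of -0.78 over all libraries, -0.11 against wild-type 1 and 2 and -1.45 against wild-type 3 and 4, and Ufd1 had 0.12, -0.10 and 0.34. Vcp had 7480.4, 9656 and 6761 normalized counts in mutant 1 to 3, against 8504, 6968, 10462 and 10401 in wild-type 1 to 4, with overlapping groups and a log2 difference of -0.19 (SE 0.21).

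Faf2, Ubxn4 and Ubxn6 encode adaptors with a UBX domain that dock p97 at the membrane or regulate it. Ubxn6 (ENSMUSG00000019578.11, chromosome 17, 56067045 to 56075028, minus strand) had 842, 762 and 788 normalized counts in mutant 1 to 3, against 647, 618, 627 and 605 in wild-type 1 to 4. The groups did not overlap, and the log2 difference was 0.35 (SE 0.16), 0.33 against wild-type 1 and 2 and 0.37 against wild-type 3 and 4. Of its exonic bases 81.8% are shared with Chaf1a on the opposite strand, where unstranded reads of the pair cannot be told apart, and the share of reads that fell there was not measured. Chaf1a had a log2 difference of -0.78. Faf2 had 1704, 1848 and 1553 normalized counts in mutant 1 to 3, against 1642, 1526, 2444 and 2600.3 in wild-type 1 to 4. Ubxn4 had 5273, 4279 and 5647 normalized counts in mutant 1 to 3, against 4937, 5035, 3851 and 3397 in wild-type 1 to 4. Faf2 was higher and Ubxn4 lower in wild-type 3 and 4 than in every other library, with log2 differences of -0.24 and 0.24 over all libraries.

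Of the genes that act after extraction, Ngly1 encodes the cytosolic glycanase that strips sugars from the client, and Rad23b encodes a shuttle to the proteasome. Rad23b had 1328, 1529.6 and 1707 normalized counts in mutant 1 to 3, against 1901, 1646, 1818 and 1898 in wild-type 1 to 4. Ngly1 had 2395, 2941 and 2328 normalized counts in mutant 1 to 3, against 2489.9, 2394, 2263 and 2382 in wild-type 1 to 4. Mutant 3 lay within the wild-type range of Rad23b and the other mutant libraries below it, and the Ngly1 groups overlapped. The log2 differences were -0.26 (SE 0.16) for Rad23b and 0.094 (SE 0.16) for Ngly1.

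The direction of many ERAD genes depended on which wild-type pair the mutant was set against. The sign was positive against both pairs for 10 genes, negative against both for 4 and opposite for 17, and it was opposite for 48.3% of all tested genes. Of the 17, 11 were above wild-type 1 and 2 and below wild-type 3 and 4 on average, among them Edem3, Sel1l, Syvn1, March6 and Erlin2. With wild-type 3 and 4 left out, limma called 0 of the 31 genes, where it called 0.318% of all genes, 0.237% higher and 0.081% lower. In that fit limma gave an unadjusted p under 0.05 to 2 of the 31, and to 1539 of all 16047 tested genes. With wild-type 1 and 2 left out, it called 14 of the 31, 6 higher and 8 lower, where it called 42.6% of all genes, 19.7% higher and 22.8% lower. Every mutant library was above both of wild-type 1 and 2 for 11 ERAD genes and below both for 2, against 13.9% and 12.4% of all genes. Set against wild-type 3 and 4, all 3 mutant libraries were above for 13 genes and below for 13, where 33.8% of all genes lay on each side.

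The gap between the wild-type pairs followed the exonic length of the ERAD genes, which counts the bases in the exons of all annotated transcripts of a gene. Over the 31 genes, the Spearman correlation between exonic length and the log2 difference of wild-type 3 and 4 minus wild-type 1 and 2 was 0.62, and over 15736 genes it was 0.51. These points are genes measured in the same 4 libraries and are not replicates. The median gap was 0.67 for the 15 longer genes and -0.23 for the 15 shorter ones. Selenos and Rnf5, the shortest of the 31 with 1477 and 1483 exonic bases, had gaps of -0.79 and -0.97, while March6 and Sel1l, the longest with 9174 and 8555, had 1.21 and 1.03. Derl2, with 8049 exonic bases, had a gap of -0.12, and Derl3, with 1993, had 0.068. The exonic length of Derl2 exceeds that of Derl2-207, its transcript with the highest FPKM (level per transcript length), which has 1466 bases. The same is true of Erlin1, with 4961 exonic bases, 3136 in Erlin1-202 and a gap of 0.44. With each library's slope against length as a covariate, limma called 0 of the 31 genes, where it called 0.791% of all genes, with 8 of the 31 and 15.7% of all genes at an unadjusted p under 0.05. The log2 differences under that covariate were 1.58 for Derl3, 0.40 for Selenos, 0.36 for Selenok, 0.30 for Derl2, 0.28 for Herpud1 and 0.38 for Syvn1.

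**Figure D4:**
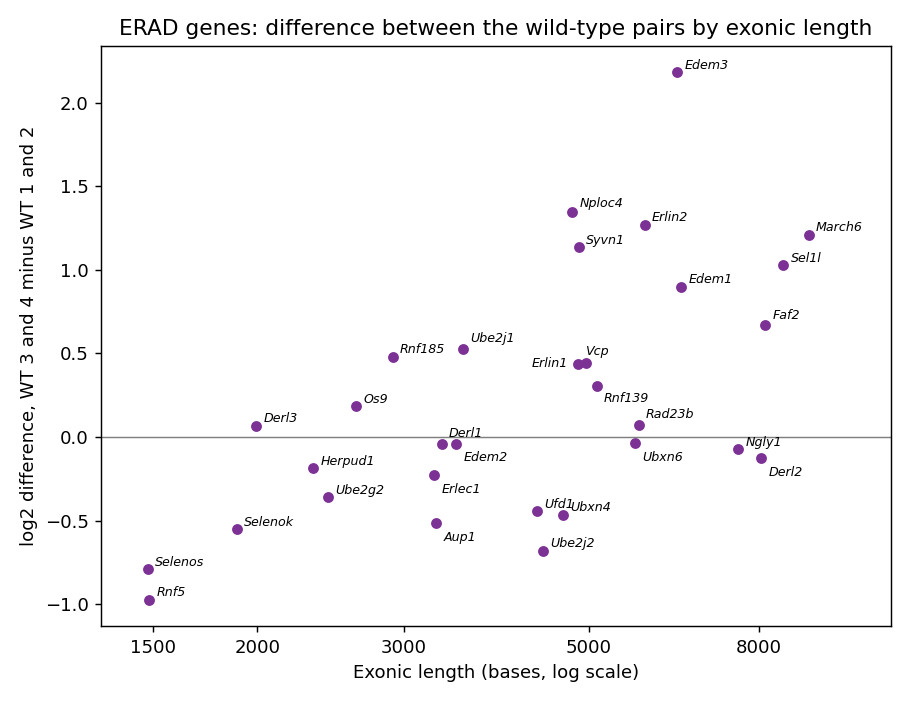
Difference between the wild-type pairs for each of the 31 ERAD genes, as the log2 difference of wild-type 3 and 4 minus wild-type 1 and 2, against exonic length in bases on a log axis. Genes of greater exonic length tend to lie above 0 and those of smaller exonic length below it (Spearman correlation 0.62 over 31 genes). Derl2, Ngly1, Rad23b and Ubxn6 lie near 0 at a large exonic length. For Derl2 and Ngly1 the exonic length exceeds that of the transcript with the highest FPKM (1466 bases for Derl2-207 and 2935 for Ngly1-201). The same is true of Erlin1 (3136 bases for Erlin1-202), which has a gap of 0.44. Whether this excess bears on the gaps was not tested.

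Within the shared title series, mutant 1 and 2 against wild-type 3 and 4, limma called 12 of the 31 genes, 4 higher and 8 lower, where it called 37.5% of all genes, 16.4% higher and 21.1% lower. Outside it, mutant 3 stands alone against wild-type 1 and 2 and is assumed to vary like them. That comparison was added after the data were seen and has no spread among mutant libraries of its own. Limma called 4 of the 31 in it, all higher, where it called 6.37% of all genes, 3.45% higher and 2.92% lower. The log2 differences of the 4 were 0.55 for Derl2, 1.71 for Derl3, 0.71 for Selenos and 0.64 for Selenok. Selenos and Selenok were called within the series, where each group has 2 libraries, with log2 differences of 1.06 (limma adjusted p = 0.0037) and 0.79 (limma adjusted p = 0.00432). Derl2 and Derl3 had 0.36 and 1.44 there and were not called (limma adjusted p = 0.102 and 0.131). With the series as a covariate limma called 6 of the 31, where it called 22.4% of all genes, 9.96% higher and 12.5% lower. Herpud1, Derl2, Selenos and Selenok were higher, and Erlin2 and Nploc4 were lower.

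Per transcript length, as FPKM summed over a gene's transcripts, ERAD genes spanned a wide range of levels. Selenok averaged 236 ± 40.04 in the mutant libraries and 154 ± 32.7 in the wild-type libraries (SD, n = 3 and n = 4). Aup1 averaged 193 ± 12.9 in the mutant libraries and 201 ± 39.6 in the wild-type libraries. Vcp averaged 112 ± 17.2 in the mutant libraries and 129 ± 23.3 in the wild-type libraries. These were the highest of the 30 genes with FPKM values, and in the mutant libraries Herpud1 (109 FPKM) and Selenos (92.6 FPKM) came next. In the wild-type libraries Herpud1 had 85.9 FPKM and Selenos 53.6. At the low end were March6, with 3.82 ± 0.0891 in the mutant libraries and 5.70 ± 2.65 in the wild-type libraries, and Derl3, with 5.66 ± 0.934 in the mutant libraries and 2.33 ± 1.59 in the wild-type libraries. The transcripts of Edem3 were not used here.

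**Figure D5:**
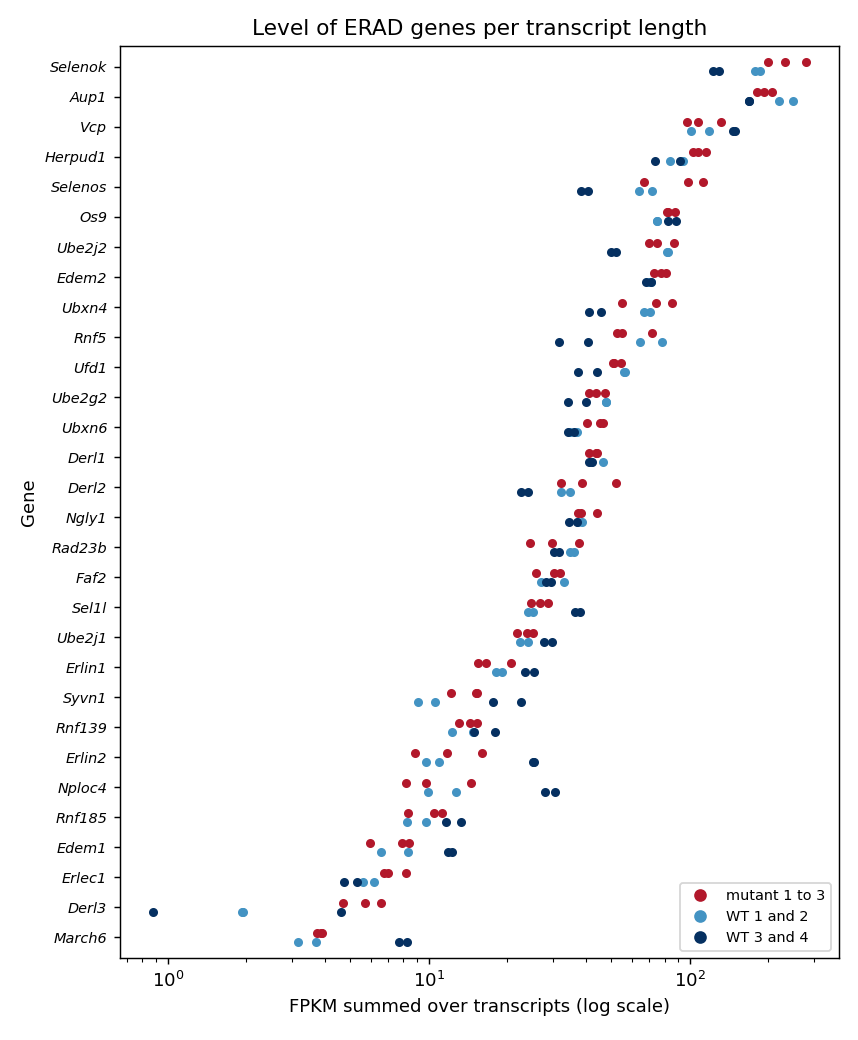
Summed FPKM of 30 ERAD genes on a log axis, with a point per library, coloured for the 3 mutant libraries, wild-type 1 and 2, and wild-type 3 and 4. Selenok averaged 236 FPKM in the mutant and 154 FPKM in the wild-type libraries, while Derl3 averaged 5.66 FPKM in the mutant and 2.33 FPKM in the wild-type libraries and March6 3.82 FPKM in the mutant and 5.70 FPKM in the wild-type libraries.

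Single transcripts were tested in the same way on log2(FPKM + 1). Of 187 transcripts of ERAD genes in the table, 99 from 30 genes reached 1 FPKM in 3 or more libraries, and limma called 0 of these and 0 of all 30156 transcripts (0.0%). At an unadjusted p under 0.05 were 11 of the 99, and 6.89% of all transcripts. The groups did not overlap for 9 of the 99, 7 higher and 2 lower in the mutant, where the shares of all transcripts were 4.27% and 3.82%. The 7 were Derl2-205, Edem2-201, Erlec1-201, Herpud1-205, Selenok-202, Selenok-203 and Ubxn6-204, all from the 6 genes whose totals did not overlap. Derl2-205, a retained-intron form, had 1.59, 1.37 and 1.54 FPKM in mutant 1 to 3, against 1.27, 0.927, 1.32 and 1.33 FPKM in wild-type 1 to 4. For Derl2-207, the coding form of Derl2 with the highest FPKM, the groups overlapped. Herpud1-205, a protein-coding form, had 80.5, 83.99 and 96.4 FPKM in mutant 1 to 3, against 73.04, 75.4, 55.5 and 64.6 FPKM in wild-type 1 to 4. Selenok-203, annotated as a target of nonsense-mediated decay, had 129, 119 and 159 FPKM in mutant 1 to 3, against 102, 110.1, 73.6 and 77.4 FPKM in wild-type 1 to 4. The log2 differences were 0.37 for Herpud1-205 and 0.58 for Selenok-203, beside 0.37 and 0.65 for the normalized counts of the genes.

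Both transcripts that were lower without overlap were retained-intron forms. Aup1-204 had 16.5, 15.8 and 14.9 FPKM in mutant 1 to 3, against 24.3, 26.9, 22.9 and 20.005 FPKM in wild-type 1 to 4. Ufd1-207 had 0.963, 1.36 and 0.101 FPKM in mutant 1 to 3, against 1.71, 2.32, 2.15 and 2.12 FPKM in wild-type 1 to 4. All mutant libraries were below the lowest wild-type library, with log2 differences of -0.54 and -0.83, whereas the gene totals of Aup1 and Ufd1 overlapped between the groups. The coding forms Faf2-201 and Faf2-203 moved in opposite directions between the wild-type pairs. Faf2-203, the longer form of 4322 bases, had 8.12, 10.9 and 5.50 FPKM in mutant 1 to 3, against 6.45, 6.68, 17.98 and 19.8 FPKM in wild-type 1 to 4. Faf2-201, of 1748 bases, had 11.9, 10.2 and 15.7 FPKM in mutant 1 to 3, against 13.5, 13.4, 6.42 and 5.51 FPKM in wild-type 1 to 4. Wild-type 3 and 4 were the highest libraries for the longer form and the lowest for the shorter one.

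A further 65 genes of ERAD and its accessory steps were listed, of which 62 were in the table and all 62 were tested. Limma called 0 of them, 2 had an unadjusted p under 0.05 (8.51% of all genes), 25 had positive differences and the median was -0.03. The groups did not overlap for 7, 6 higher and 1 lower in the mutant, where the shares of all genes were 5.23% and 4.34%. In the limma fit that held the title series as a covariate, 15 of the 62 were called, 8 higher and 7 lower, where it called 22.4% of all genes. The 5 of smallest p included Trim13, a membrane ligase of ERAD, which had 1007, 853 and 1293 normalized counts in mutant 1 to 3, against 748, 606, 429 and 627 in wild-type 1 to 4. Tmed2, a cargo receptor of early secretory vesicles, had 5042, 4467 and 5582 normalized counts in mutant 1 to 3, against 3892, 4333, 3489 and 2902 in wild-type 1 to 4. The mutant libraries were above all wild-type libraries in both, with log2 differences of 0.81 and 0.47. The ubiquitin-conjugating enzyme Ube2w, the deubiquitinase Usp13 and the glycan-binding F-box gene Fbxo2 had log2 differences of 0.50, 0.94 and 0.79, also without overlap, although Usp13 and Fbxo2 had at most 21.3 and 57.1 normalized counts in any library. With that covariate limma called Trim13, Tmed2 and Ube2w (limma adjusted p = 0.0258, 0.0278 and 0.0289) and neither Usp13 nor Fbxo2.

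Of 24 regulators and markers of the unfolded protein response, which controls much of ERAD, 15 had positive differences, with a median of 0.25 and 0 called by limma. At an unadjusted p under 0.05 were 6, beside 8.51% of all genes. The groups did not overlap for 6 higher and for 1 lower, which was Calr, beside 5.23% and 4.34% of all genes. In the limma fit that held the title series as a covariate, 14 of the 24 were called, 9 higher and 5 lower, where it called 22.4% of all genes, 9.96% higher and 12.5% lower. Xbp1, the transcription factor that induces many ERAD genes, had 8714, 8092 and 10910.0 normalized counts in mutant 1 to 3, against 5619, 5873, 4789 and 5984 in wild-type 1 to 4. Every mutant library was higher, and DESeq2 called it (log2 0.74, DESeq2 adjusted p = 0.0373), while limma did not (log2 0.72, limma adjusted p = 0.538). The fit that held the title series called Xbp1 (log2 0.76, limma adjusted p = 0.0258) and so did the fit within that series (log2 0.65, limma adjusted p = 0.0128), and the log2 difference outside it was 0.93. Xbp1 was also called without wild-type 1 and 2 (log2 0.78, limma adjusted p = 0.0109), but not without wild-type 3 and 4 (log2 0.67, limma adjusted p = 0.198). Neither the length slope (log2 0.64, limma adjusted p = 0.0575) nor edgeR (log2 0.72, edgeR adjusted p = 0.462) called it. Atf6, which encodes the ER stress sensor that is cleaved to a transcription factor, had 486, 678 and 448 normalized counts in mutant 1 to 3, against 533, 492, 1223 and 1091 in wild-type 1 to 4. Dnajb9, a co-chaperone of BiP and a target of XBP1, had 470.0, 812 and 627 normalized counts in mutant 1 to 3, against 334, 453, 1678 and 1354 in wild-type 1 to 4. Both were highest in wild-type 3 and 4, with log2 differences of 0.045 and 0.67 against wild-type 1 and 2, and -1.13 and -1.28 against wild-type 3 and 4. Hspa5, which encodes BiP, had a log2 difference of 0.31 (SE 0.20) with overlapping groups.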

How the data were processed

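Sorted mouse long-term haematopoietic stem cells were sequenced as 3 mutant and 4 wild-type libraries, unstranded and amplified with a SMART-Seq kit, per the labels' protocols. The submitters' processing notes name the build GRCm38 and the tools STAR 2.7.3a, HTSeq 0.6.1, Cufflinks 2.2.1, DESeq2 1.12.4 and FastQC 0.11.7, without their options. Their deposited gene table held a signal, the count of reads divided by a size factor (normalized count), for 19649 genes. In every library 100% of values divided by its smallest step to whole numbers within 0.01 reads, so read counts were recovered. A second deposited table held FPKM for 66660 transcripts.

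Genes with at least 10 normalized counts in at least 3 libraries (16047) were tested with limma 3.58.1 (R 4.3.3, variance trend, two-sided) on log2(normalized count + 1), mutant minus wild-type, with Benjamini-Hochberg adjustment over all of them at 0.05. Transcripts with at least 1 FPKM in at least 3 libraries (30156) were tested on log2(FPKM + 1). The 1 added on these scales shrinks the differences of low genes. A limma difference can still exceed that of the count models, as for Derl3, with 1.54 in limma, 1.28 in DESeq2 and 1.26 in edgeR. Recovered reads were tested with edgeR 4.0.16 and DESeq2 1.42.0 as alternatives. The fits were also run on simulated counts with a fixed dispersion and no difference between wild-type pairs. That run does not show how the fits perform with the split among these libraries. Other alternatives changed the pseudocount, filter, scaling, covariates and libraries. The length slope is the regression of a library's deviations on log exonic length from GENCODE M21, which matched 97.7% of genes. All ERAD genes were named, with the 5 genes of smallest p among further ERAD genes and 4 regulators. Members and lists were chosen with earlier results of these data known, so no list was given a test.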

Additional observations from a re-analysis of the deposited data

How the results depend on the processing

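The 31 genes were refitted under 22 alternatives, 21 of them planned, with 681 values in all. Of these, 581 kept their direction and their side of the threshold, 36 passed the threshold with the same sign and 64 turned sign. The sign stayed the same in every alternative for 13 genes. Of these, Edem2, Erlec1, Herpud1, Derl2, Derl3, Selenos, Selenok, Ubxn4 and Ubxn6 were positive, and Edem1, Erlin1, Nploc4 and Rad23b were negative. Over all libraries limma called 0 genes, and so it did with any 1 library left out. DESeq2 called 107. Limma called 51 when wild-type 3 and 4 were left out, 6828 when wild-type 1 and 2 were left out, 3597 with the title series as a covariate, 6010 within that series, 1022 outside it (added after seeing the data) and 127 with the length slope. Of transcripts it called 0 over all libraries, 3 with no filter, 2 when wild-type 3 and 4 were left out, 6778 when wild-type 1 and 2 were left out, and 0 to 1 with 1 library left out, where the 1 came without mutant 2.

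The median over the 31 genes, 0.01 over all libraries, was 0.11 with wild-type 3 and 4 left out. That of the ligases, -0.08, was 0.11 with wild-type 3 and 4 left out and -0.32 with wild-type 1 and 2 left out. With the length slope the ligase median was 0.095, so its sign depended on the fit. That of extraction, 0.24, was 0.10 with wild-type 3 and 4 left out, 0.37 with wild-type 1 and 2 left out, 0.36 within the title series, 0.070 with the length slope and 0.14 to 0.36 with 1 library left out. The cause of these shifts was not tested.

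Log2 differences of the other sign were as follows. Without wild-type 3 and 4 they were 0.20 for Edem3, 0.20 for Sel1l, 0.46 for Syvn1, 0.13 for March6, -0.25 for Rnf5, 0.11 for Rnf139, 0.16 for Rnf185, 0.10 for Ube2j1, -0.14 for Ube2j2, -0.10 for Ube2g2, -0.24 for Aup1, 0.16 for Erlin2, 0.033 for Vcp, -0.10 for Ufd1 and 0.10 for Faf2. With the length slope they were 0.025 for Edem3, 0.14 for Sel1l, 0.38 for Syvn1, 0.040 for March6, -0.20 for Rnf5, 0.11 for Rnf139, 0.17 for Rnf185, 0.095 for Ube2j1, -0.11 for Ube2j2, -0.068 for Ube2g2, -0.22 for Aup1, 0.14 for Erlin2, 0.056 for Vcp, -0.068 for Ufd1 and 0.070 for Faf2. Outside the title series they were 0.10 for Edem3, 0.11 for Sel1l, 0.43 for Syvn1, 0.11 for March6, 0.10 for Rnf139, -0.017 for Ube2g2, -0.13 for Aup1, 0.018 for Derl1, -0.027 for Ufd1 and -0.068 for Ngly1. Without wild-type 1 and 2 they were -0.019 for Os9 and 0.010 for Derl1. Summed FPKM gave 0.012 for Syvn1, -0.043 for Aup1 and 0.0038 for Derl1. Quantile scaling gave 0.033 for Rnf139, 0.028 for Rnf185 and -0.028 for Aup1. Aup1, near 0 over all libraries, had -0.0014 with TMM scaling, -0.012 with edgeR and -0.0013 with DESeq2. With 1 library left out in turn, Syvn1 had -0.31 to 0.13, Rnf139 -0.14 to 0.050, Rnf185 -0.19 to 0.065, Ube2g2 -0.018 to 0.15, Aup1 -0.074 to 0.12, Derl1 -0.036 to 0.017 and Ngly1 -0.012 to 0.16. No other sign change was found among the alternatives run.

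No paired analysis was possible because the sample titles share no replicate number between the groups. Depth limits Derl3 most, which with 24.2 to 191 normalized counts, had the lowest count of the 31 genes.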
